A study of Mus musculus with 2 samples.

Results

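A set of 9 genes for growth factors that muscle secretes or answers to was followed through long-read RNA sequencing of mouse gastrocnemius, a calf muscle rich in fast fibres: Mstn, Acvr2b, Fstl1, Igf1, Igfbp5, Vegfa, Vegfb, Fndc5 and Metrnl. They were chosen by name, as all transcript models filed under these 9 gene symbols, and make up 9 of the 15324 annotated genes with a read in either library. The study holds 2 libraries of total RNA from female mice aged 36 days of the B6CASTF1/J strain, a first-generation hybrid of B6 and CAST; the labels give no treatment. The labels give the libraries biological replicate numbers 1 and 2 and separate animal numbers under 1 shared donor entry, and each started from 2 µg of RNA. Both belong to 1 group, so no condition was compared, and the difference between the libraries is the only measure of error. The 9 genes had 316 reads in 38 models in replicate 1 and 769 reads in 66 models in replicate 2.

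The 2 libraries differed in depth and in make-up. Annotated genes took 797105 reads in replicate 1 and 1602272 in replicate 2, and levels are given in CPM, the reads of a gene scaled to these totals. In replicate 1 each read added 1.25 CPM, and in replicate 2 it added 0.624 CPM. Markers of muscle fibres (5 genes, such as Ckm and Acta1) took 20.9% and 16.2% of the reads. All 6 markers of slow fibres were higher in replicate 2, where they took 0.781% of the reads against 0.00176% in replicate 1, and 3 of them (Myh7, Myl2 and Myl3) had no read in replicate 1. The 5 blood markers took 0.256% and 0.0554%, the 5 fibroblast markers 0.0698% and 0.0385%, the 4 adipocyte markers 0.0573% and 0.0309%, and the 5 endothelial markers 0.0102% and 0.0101%. In tissue RNA, fewer cells of a type and less RNA per cell cannot be told apart. A gene was called when a two-sided Fisher's exact test gave a Benjamini-Hochberg adjusted p below 0.05 and its CPM differed 2-fold or more. This held for 911 of 8096 genes tested (11.3%), of which 468 (5.78%) were higher in replicate 2 and 443 (5.47%) were lower there. The higher genes were 51.4% of these calls, 38.0% with the calcium pump gene Atp2a1 left out of the total and 30.3% with annotated transcripts alone. Such a call sets 1 library against the other and not conditions. Intervals below are exact 95% intervals that cover counting error only. Where 0 reads are given an upper limit alone, that limit is a floor of 3 reads and not an exact interval.

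These genes encode signals that set muscle mass, blood supply and exchange with other tissues. Myostatin, the product of Mstn, is a TGF-beta family ligand made by muscle fibres that restrains their growth, and it binds activin type II receptors, among them the product of Acvr2b, which signal through SMAD proteins. Insulin-like growth factor 1 acts in the opposite direction through the IGF receptor and the AKT pathway, and IGF-binding proteins hold it in the matrix or carry it in blood. VEGF-A drives the growth of capillaries through endothelial receptors, and VEGF-B acts on a narrower set of these receptors. Fndc5 encodes a membrane protein from which irisin is released, and Metrnl and Fstl1 encode secreted proteins also described as myokines, which are proteins that muscle releases.

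Long reads show which coding segments were joined in 1 molecule, and 7 segments carried the choices seen in these genes. They are printed from GENCODE M21 transcripts (GRCm38, mm10), 5′ to 3′ on the gene's strand, with the segment in capitals and the 12 bases on either side in the spliced transcript in lower case. All 7 lie inside annotated coding sequence.
Vegfa exon 6 (72 bases, chr17:46022277-46022348, minus strand): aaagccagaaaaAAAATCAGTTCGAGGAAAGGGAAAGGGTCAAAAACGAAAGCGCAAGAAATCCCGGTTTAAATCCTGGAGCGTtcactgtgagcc
Vegfa exon 7 (132 bases, chr17:46020991-46021122, minus strand): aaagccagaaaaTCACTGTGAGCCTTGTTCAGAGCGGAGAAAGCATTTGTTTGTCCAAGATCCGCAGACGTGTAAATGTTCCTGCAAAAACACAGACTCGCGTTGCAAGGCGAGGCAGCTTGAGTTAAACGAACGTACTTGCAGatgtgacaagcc
Vegfb extra bases of exon 6 (101 bases, chr19:6985496-6985596, minus strand): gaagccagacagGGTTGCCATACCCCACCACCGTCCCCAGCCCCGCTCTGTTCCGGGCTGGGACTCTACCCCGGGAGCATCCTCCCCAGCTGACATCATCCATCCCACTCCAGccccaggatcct
Acvr2b segment (24 bases, chr9:119428201-119428224, plus strand): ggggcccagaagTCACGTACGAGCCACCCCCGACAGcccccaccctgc
Acvr2b segment (72 bases, chr9:119428353-119428424, plus strand): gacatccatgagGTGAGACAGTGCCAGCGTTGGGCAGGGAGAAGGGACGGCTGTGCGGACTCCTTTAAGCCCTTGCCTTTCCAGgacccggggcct
Igf1 exon (52 bases, chr10:87915298-87915349, plus strand): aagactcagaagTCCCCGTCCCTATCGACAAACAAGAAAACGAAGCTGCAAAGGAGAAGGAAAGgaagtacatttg
Fndc5 first bases of exon 5 (9 bases, chr4:129142062-129142070, plus strand): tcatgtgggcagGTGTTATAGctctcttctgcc
The exons of Vegfa, the segments of Acvr2b and the bases of Fndc5 are whole multiples of 3 long, so the reading frame after them is the same with and without them. The Vegfb and Igf1 segments are not, so the bases after them are read in another frame. The 72 bases of Acvr2b begin with GT and end with AG, the letters at the ends of most introns, and the 9 bases of Fndc5 also end with AG.

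**Figure D1:**
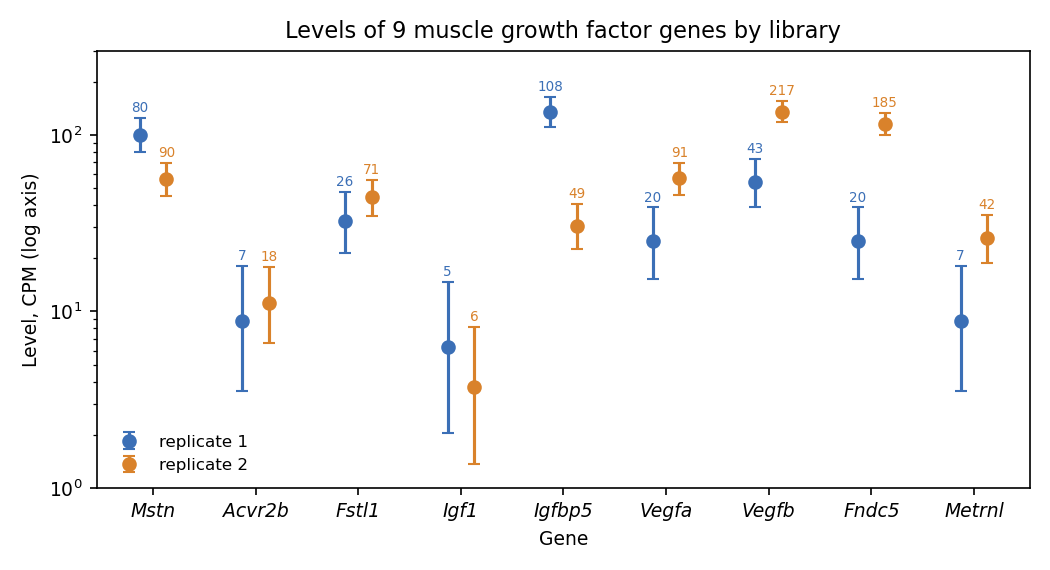
Levels of the 9 genes in CPM on a log axis, 1 point per library with its exact 95% Poisson interval; the number beside each point is the read count. Igfbp5 is highest in replicate 1 at 135 CPM and Vegfb in replicate 2 at 135 CPM, while Igf1 is lowest in both.

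All 9 genes had reads in both libraries, and their order by level differed between the libraries. Each long read was counted once whatever its length, so CPM was not divided by transcript length. Whether long and short transcripts were recovered equally was not tested. Of the top and bottom genes by mean level, Vegfb-202 has 1158 bases and Igf1-202 has 7052. By mean CPM the order was Vegfb, Igfbp5, Mstn, Fndc5, Vegfa, Fstl1, Metrnl, Acvr2b and Igf1, from 94.7 ± 57.6 CPM (SD, n = 2) to 5.01 ± 1.79 CPM. The first 4, from 94.7 to 70.3 CPM, lay within the spread between the libraries of one another, as did Vegfa (40.9 ± 22.4 CPM) and Fstl1 (38.5 ± 8.27 CPM). In replicate 1 Fndc5 and Vegfa had the same level of 25.1 CPM, and the intervals of Fstl1 and Metrnl overlapped in replicate 2 but not in replicate 1. Metrnl (17.5 ± 12.3 CPM) and Acvr2b (10 ± 1.73 CPM) also lay within that spread, and the intervals of Acvr2b and Igf1 overlapped in both libraries. Of the 9 genes, 5 differed between the libraries by the test above, 4 higher (Fndc5, Metrnl, Vegfb and Vegfa) and 1 lower (Igfbp5) in replicate 2, beside the 11.3% of all genes. The median log2 CPM ratio of replicate 2 to replicate 1 was 0.43 over the 9 genes and 0.05 over all genes tested. Leaving Atp2a1 out of the total moved the latter to -0.07, and ratios of single genes and lists shift with it. Igf1, Acvr2b and Metrnl had 5 to 7 reads in replicate 1, and at such counts a missing call does not show equal levels.

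Myostatin was among the better read of the 9 genes, and nearly all of its molecules had the same structure. Mstn (ENSMUSG00000026100.6, chr1:53061640-53068079, plus strand) had 80 reads in replicate 1, 100 CPM (79.6 to 125), and 90 reads in replicate 2, 56.2 CPM (45.2 to 69.0). The intervals did not overlap, with the level 1.79-fold higher in replicate 1 (1.31 to 2.44; adjusted p = 0.00209 by Fisher's exact test), which is under the 2-fold size set for a call. Mstn-201, the 3-exon transcript of 2705 bases that encodes the full precursor of 376 codons, took 78 of 80 reads (97.5%, 91.3 to 99.7) and 86 of 90 (95.6%, 89.0 to 98.8). No read was assigned to Mstn-202, which has a shorter coding sequence of 189 codons. The other reads were 5 pieces of the last exon, 2 in replicate 1 and 3 in replicate 2, and 1 read in replicate 2 with an unannotated splice site. With 1295 genes at a higher mean level, Mstn stood above 91.5% of the genes with reads.

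Acvr2b, a type II receptor for myostatin and activins, had few reads, and most of those that reached its 5′ part began at an exon outside the annotation. Its level was 8.78 CPM in replicate 1 (7 reads, 3.53 to 18.1) and 11.2 CPM in replicate 2 (18 reads, 6.66 to 17.8), a ratio of 1.28 (0.510 to 3.62; adjusted p = 0.865 by Fisher's exact test). The gene (ENSMUSG00000061393.14) is annotated at chr9:119402118-119434995 on the plus strand. All 6 reads that showed a start exon joined to the annotated exon 2 in replicate 1, and 11 of 15 in replicate 2 (73.3%, 44.9 to 92.2), started in an exon at chr9:119408150-119408331. Its splice donor lies 5734 bases downstream of the donor of the annotated exon, inside the long intron that follows it. The remaining 4 reads of replicate 2 used the annotated exon and belonged to Acvr2b-205. Replicate 1 had 0 of 6 such reads, and the floor of 3 reads allows a share of up to 50%. The annotated start exon holds 52 coding bases, which molecules with the other exon lack; whether those molecules are translated was not tested. The start printed for that exon is also an exon boundary in models of Gm47320, a gene on the opposite strand (2 reads in replicate 1 and 5 in replicate 2), so the start is less certain than the splice donor.

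The same Acvr2b molecules also showed both alternative segments of the receptor. The 24-base segment was present in 6 of 6 reads of replicate 1 and 12 of 15 of replicate 2 (80.0%, 51.9 to 95.7). The 72-base segment was spliced out of 5 of 6 and 15 of 15 reads, and the single read that kept it came from replicate 1. Molecules with the unannotated start exon, with the 24 bases and without the 72 bases formed the leading model in both libraries, with 5 and 8 reads. It was the only unannotated intron chain of the NIC or NNC class, among 31 such chains in the 9 genes, that occurred in both libraries, and 22 of the 31 had 1 read. By definition NIC chains join annotated splice sites in a combination outside the annotation, and NNC chains use at least 1 unannotated splice site. The NIC chains of Acvr2b, with 1 read in replicate 1 and 3 in replicate 2, nevertheless used the donor of the unannotated start exon. Acvr2b-202, which holds both segments (536 codons), and Acvr2b-201, which holds the 72 bases alone (528 codons), had no read, against 0 and 4 reads for Acvr2b-205, which holds the 24 bases alone (512 codons).

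Fstl1, a secreted glycoprotein related in sequence to follistatin, was not called between the libraries. It had 26 reads in replicate 1, 32.6 CPM (21.3 to 47.8), and 71 in replicate 2, 44.3 CPM (34.6 to 55.9), with overlapping intervals and a ratio of 1.36 (0.856 to 2.22; adjusted p = 0.421 by Fisher's exact test). The 11-exon Fstl1-201, its sole annotated coding transcript, took 22 of 26 reads (84.6%) and 48 of 71 (67.6%), and this share did not pass the test (adjusted p = 0.359 by Fisher's exact test). Single-exon models in the last exon had 1 read in replicate 1 and 17 in replicate 2. The model of replicate 1 is 1 base long, at a position where both models of replicate 2 also end or begin, so these ends are approximate. The gene (ENSMUSG00000022816.11) lies at chr16:37776873-37836514 on the plus strand.

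Of 28 other listed genes of the TGF-beta and activin pathway 13 had enough reads for the test. Of these 13, 1 was higher and 1 lower in replicate 2, which is near the 11.3% called over all genes, and their median log2 ratio was -0.19. Bmpr2, a type II receptor of bone morphogenetic proteins, was higher, at 7.53 and 28.7 CPM (6 and 46 reads; adjusted p = 0.00465 by Fisher's exact test). Acvr2a, the other activin type II receptor, was lower, at 12.5 and 2.50 CPM (10 and 4 reads; adjusted p = 0.0234 by Fisher's exact test). The most read genes of the list were Dcn, a matrix proteoglycan that binds TGF-beta (181 and 159 CPM), Smad4, the shared SMAD partner (50.2 and 27.5 CPM), and Bmpr1a (25.1 and 31.2 CPM), none of them called.

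Igf1 was the least read of the 9 genes. Its 5 reads in replicate 1 gave 6.27 CPM (2.04 to 14.6) and its 6 reads in replicate 2 gave 3.74 CPM (1.37 to 8.15), with overlapping intervals and a ratio of 0.597 (0.152 to 2.47; adjusted p = 0.755 by Fisher's exact test). Igf1-202, the longest annotated form at 7052 bases, had 2 and 3 reads, Igf1-204 had 1 read in replicate 1 and Igf1-203 had 1 read in replicate 2. The other annotated coding forms, Igf1-201, Igf1-205, Igf1-206, Igf1-207 and Igf1-208, had no read. The 52-base exon printed above, which gives the precursor its Eb end and not the Ea end, was in 0 of 4 and 1 of 4 reads that spanned the choice. Over both libraries that was 1 of 8 reads, with an interval from 0.316 to 52.7%. The start exon of Igf1-202 was used by 2 of 3 and 4 of 4 reads that showed one of the start exons, and that of Igf1-204 by 1 read. Igf1 (ENSMUSG00000020053.18) lies at chr10:87858265-87937042 on the plus strand.

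Igfbp5, an IGF-binding protein of muscle and connective tissue, was the 1 gene of the 9 that was called lower in replicate 2. It had 108 reads in replicate 1, 135 CPM (111 to 164), and 49 reads in replicate 2, 30.6 CPM (22.6 to 40.4). The intervals lay far apart, and the level was 4.43-fold higher in replicate 1 (3.13 to 6.34; adjusted p = 3.80e-18 by Fisher's exact test). Of the 9 genes, Igfbp5 had the highest share of single-exon pieces in both libraries. They were 64 of 108 reads (59.3%, 49.4 to 68.6) and 38 of 49 (77.6%, 63.4 to 88.2), all of the Genomic class inside its last exon of 4577 bases. Such pieces cross no splice site, so they do not show whether the molecule was spliced. Genomic models overlap a gene without matching its splicing. Igfbp5-201, the only annotated coding transcript (6006 bases, 271 codons), had 40 and 9 reads, and with annotated transcripts alone the level was 9.07-fold higher in replicate 1. Some markers of other cell types were also called lower in replicate 2. They were 1 of 5 fibroblast markers (Col3a1, 381 and 182 CPM), 2 of 3 adipocyte markers tested (Cfd, 348 and 59.3 CPM, and Adipoq, 30.1 and 8.11 CPM), 4 of 5 blood markers, 1 of 2 Schwann cell markers tested (Mbp, 96.6 and 16.9 CPM) and 1 of 5 markers of pericytes and smooth muscle (Myh11, 8 and 2 reads). The other adipocyte marker tested, Fabp4, was at 193 and 240 CPM and not called. Most markers of tendon, also a connective tissue, went the other way. Of 5 tested, 2 were called higher in replicate 2 and 0 lower. The 2 were Scx (8 and 56 reads) and Chad (3.76 and 16.2 CPM, from 3 and 26 reads). Tendon markers took 0.0119% and 0.0165% of the reads, with a median log2 ratio of 0.97. The Schwann cell markers took 0.0208% and 0.00780% of the reads and those of pericytes and smooth muscle 0.0154% and 0.0125%. The part of these cell types in the Igfbp5 difference was not tested. The gene (ENSMUSG00000026185.8) lies at chr1:72857932-72874884 on the minus strand.

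Of 24 other genes listed for the IGF pathway 19 were tested. In replicate 2, 0 of these 19 were higher and 3 lower, beside 11.3% called over all genes (5.78% higher and 5.47% lower). Whether the share of the list differs from that of all genes was not tested. The median log2 ratio of the 19 was -0.32. Igfbp3, the main carrier of IGFs in blood, was at 23.8 and 6.87 CPM (adjusted p = 0.00619 by Fisher's exact test), and Igfbp4 at 35.1 and 14.4 CPM (adjusted p = 0.0110 by Fisher's exact test). Foxo1, a transcription factor that AKT restrains, was at 22.6 and 7.49 CPM (adjusted p = 0.0190 by Fisher's exact test). The best read genes of the list, Eif4ebp1 (117 and 149 CPM), Igfbp7 (84.1 and 86.8 CPM) and Akt2 (112 and 59.9 CPM), were not called.

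Vegfa, the main angiogenic factor of muscle, was called higher in replicate 2 with all its reads counted, but not with annotated transcripts alone. It had 20 reads in replicate 1, 25.1 CPM (15.3 to 38.8), and 91 in replicate 2, 56.8 CPM (45.7 to 69.7), a ratio of 2.26 (1.38 to 3.88; adjusted p = 0.00455 by Fisher's exact test). Single-exon Genomic reads inside its last exon numbered 3 of 20 (15.0%, 3.21 to 37.9) and 53 of 91 (58.2%, 47.4 to 68.5). This share was the only one among the 6 members read at least 20 times in both libraries that passed the test of the leading model (adjusted p = 0.00453 by Fisher's exact test), beside 15.8% of the 3204 genes tested. In that test the single-exon Genomic models of a gene counted together as 1 model, for Vegfa as for all genes. For Vegfa they were separate pieces of 2 reads and 1 read in replicate 1 and a piece of 53 reads in replicate 2. Annotated transcripts of Vegfa had 14 and 34 reads, a ratio of 1.19 (adjusted p = 0.826 by Fisher's exact test). The gene (ENSMUSG00000023951.17) lies at chr17:46016993-46032369 on the minus strand, and its last exon is 1887 bases long.

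Spliced Vegfa molecules mostly held exon 7 and mostly lacked exon 6, which set how strongly VEGF-A binds heparan sulphate. Exon 7 was in 15 of 17 (88.2%, 63.6 to 98.5) and 31 of 35 (88.6%, 73.3 to 96.8) spanning reads, and exon 6 in 2 of 17 (11.8%, 1.46 to 36.4) and 8 of 34 (23.5%, 10.7 to 41.2). The form with exon 7 alone, as in Vegfa-202, made up 13 of 17 and 22 of 34 reads. Both exons, as in Vegfa-207, were in 2 and 8 reads, and neither, as in Vegfa-201, in 2 and 4. Exon 6 without exon 7 was in 0 and 0 reads, and the floor of 3 reads allows shares of up to 17.6% and 8.82%. No read was assigned to the annotated coding forms Vegfa-203, Vegfa-204, Vegfa-211, Vegfa-212 and Vegfa-213. Vegfa-212 has 7 exons and 368 codons, as Vegfa-202 does, and Vegfa-213 has 8 exons and 392 codons, as Vegfa-207 does. Vegfa-211 has 6 exons, as Vegfa-201 does. These pairs differ in their annotated ends, so the lack of reads under these names does not show that the forms were absent. Intron 3 was kept in 2 of 17 and 1 of 33 spanning reads. The form with exon 7 alone led in both libraries, and the intervals of each form overlapped between them.

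Vegfb was the best read member of the VEGF family here and was higher in replicate 2. Its 43 reads in replicate 1 gave 53.9 CPM (39.0 to 72.7) and its 217 reads in replicate 2 gave 135 CPM (118 to 155), without overlap and with a ratio of 2.51 (1.80 to 3.57; adjusted p = 4.09e-08 by Fisher's exact test). The choice at exon 6 divides the known secreted forms: Vegfb-202 (188 codons) encodes the heparin-binding form and Vegfb-201 (207 codons), with the 101 extra bases, the more diffusible form. The extra bases were in 17 of 39 (43.6%, 27.8 to 60.4) and 55 of 185 (29.7%, 23.2 to 36.9) spanning reads, so the shorter exon was the more frequent in both libraries and the intervals overlapped. Vegfb-202 took 51.2% and 53.0% of all Vegfb reads. A further 14 chains of the NIC and NNC classes with 18 reads occurred in replicate 2 and none in replicate 1, the library with fewer Vegfb reads. Incomplete pieces of annotated chains were in both libraries: the last exon alone had 3 and 20 reads, a 2-exon piece 1 and 9, and a 4-exon piece with the longer exon 6 had 1 and 7. The gene (ENSMUSG00000024962.13) lies at chr19:6982473-6987651 on the minus strand.

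Of the 16 other genes of the VEGF pathway 10 were tested. In replicate 2, 2 of these 10 were higher and 0 lower, beside 11.3% called over all genes (5.78% higher), and their median log2 ratio was -0.18. Esrra, a nuclear receptor that acts with PGC-1alpha on mitochondrial genes, was at 315 and 1797 CPM (adjusted p = 4.38e-245 by Fisher's exact test). Egln3, an oxygen-dependent hydroxylase of hypoxia-inducible factors, was at 1.25 and 18.1 CPM (1 and 29 reads; adjusted p = 0.00127 by Fisher's exact test). The related hydroxylase gene Egln1 (201 and 206 CPM) and Epas1, a hypoxia-inducible factor (28.9 and 21.2 CPM), were not called, nor was any of the 5 endothelial markers.

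**Figure D2:**
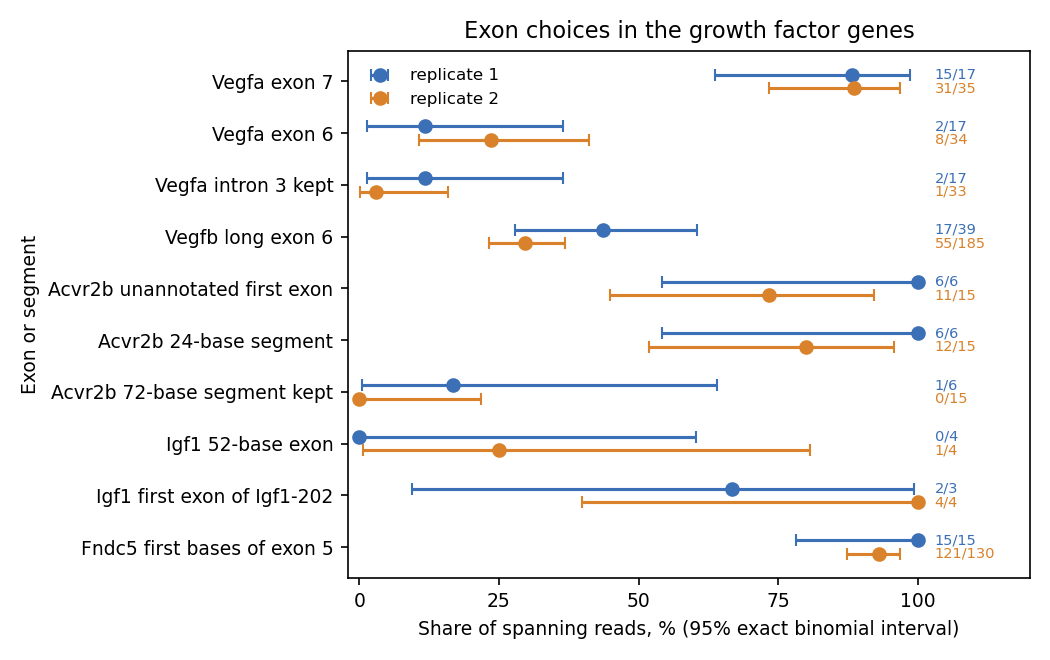
Share of spanning reads that hold each exon, segment or intron, in percent, with exact 95% binomial intervals and the read counts at the right, for both libraries. Vegfa exon 7 lies at 88.2% and 88.6% and the longer Vegfb exon at 43.6% and 29.7%, and intervals of the 2 libraries overlap in every row.

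Fndc5, the precursor of irisin, showed the widest difference of the genes higher in replicate 2. It had 20 reads in replicate 1, 25.1 CPM (15.3 to 38.8), and 185 in replicate 2, 115 CPM (99.4 to 133), without overlap and with a ratio of 4.60 (2.89 to 7.71; adjusted p = 1.36e-13 by Fisher's exact test). Fndc5-201, the sole annotated transcript (6 exons, 209 codons), took 13 of 20 reads (65.0%) and 116 of 185 (62.7%), a share that did not pass the test (adjusted p = 1.00 by Fisher's exact test). The 9 bases at the start of exon 5 were present in 15 of 15 and 121 of 130 spanning reads (93.1%, 87.3 to 96.8), and the 9 reads without them came from replicate 2. Models that ended 1295 or 1296 bases before the annotated end had 2 and 27 reads, and single-exon models that ran from there to the annotated end had 5 and 34. Ends in these files often lie on positions shared between models, so the inner end is approximate. The slow fibre markers were higher in the same library as Fndc5 and Vegfb, at 17.6 and 7806 CPM in sum, and their part in these differences was not tested. Fndc5 (ENSMUSG00000001334.9) lies at chr4:129136999-129144593 on the plus strand.

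Metrnl, a secreted protein of muscle, fat and immune cells, was called higher in replicate 2 with all reads only. It had 7 reads in replicate 1, 8.78 CPM (3.53 to 18.1), and 42 in replicate 2, 26.2 CPM (18.9 to 35.4), a ratio of 2.98 (1.33 to 7.87; adjusted p = 0.0225 by Fisher's exact test). Metrnl-201, with 311 codons, had 4 and 14 reads, a ratio of 1.72 (adjusted p = 0.665 by Fisher's exact test), and single-exon Genomic reads of the last exon numbered 3 and 27. Metrnl-202 (229 codons) and Metrnl-203 (217 codons) had no read. Of the immune markers 1 of the 3 tested was called higher, C1qc at 2.51 and 13.7 CPM. It had 2 and 22 reads, the former under the floor of 3 reads, and its part in the Metrnl difference was not tested. The gene (ENSMUSG00000039208.15) lies at chr11:121701544-121716306 on the plus strand. Of 25 other secreted factors of muscle 10 were tested and 0 were called, beside 11.3% over all genes, with a median log2 ratio of 0.08. The most read of them were the protease Ctsb (433 and 392 CPM), the matrix protein Sparc (363 and 405 CPM) and Nampt, an enzyme of NAD synthesis (26.3 and 41.2 CPM).

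**Figure D3:**
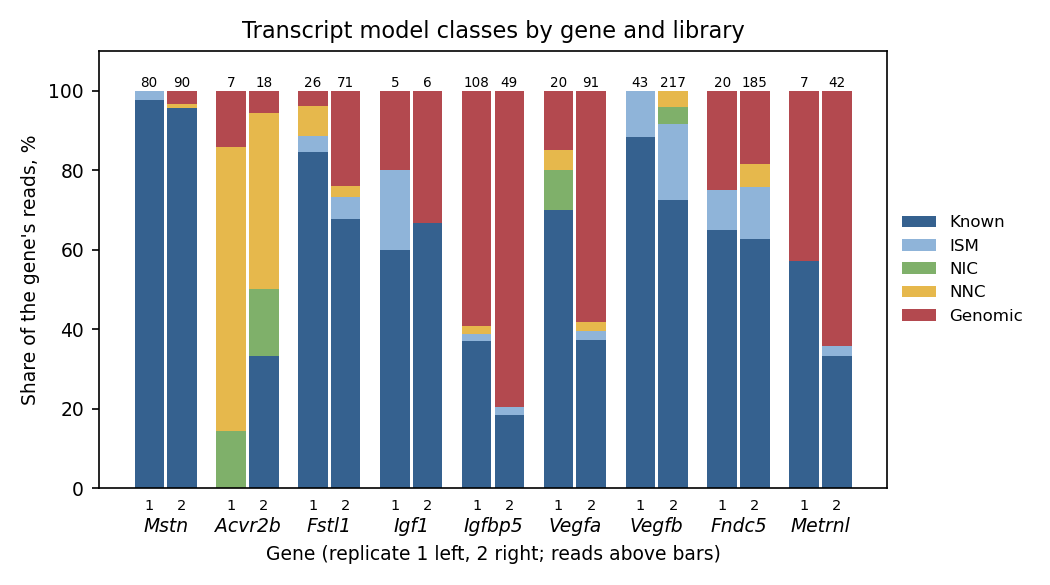
Share of each gene's reads by class of transcript model, in percent, with replicate 1 left and replicate 2 right and the read count above each bar. Mstn is nearly all Known, while Igfbp5 in both libraries and Vegfa and Metrnl in replicate 2 are mostly Genomic.

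The share of single-exon pieces among the reads of the 9 genes was set largely by a few of them. Known models, which match an annotated transcript, took 67.1% and 61.6% of their reads, against 66.6% and 67.6% over all annotated genes. Genomic models took 24.7% and 22.9%, against 4.63% and 8.0%, and incomplete splice matches (ISM), which hold a consecutive part of an annotated chain, took 4.11% and 9.62%, against 10.7% and 15.8%. Single-exon reads were 83 of the 316 in replicate 1 and 215 of the 769 in replicate 2, and most came from Igfbp5, Vegfa, Fndc5 and Metrnl, whose last exons they lay in. Igfbp5 held 64 of the 83 in replicate 1. Single-exon reads were 26.3% and 28.0% of all reads of the 9 genes, and without Igfbp5, a choice made after the values were seen, 9.13% and 24.6%, against 9.18% and 16.2% over all annotated genes. Genomic reads without Igfbp5 were 6.73% and 19.0%.

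**Figure D4:**
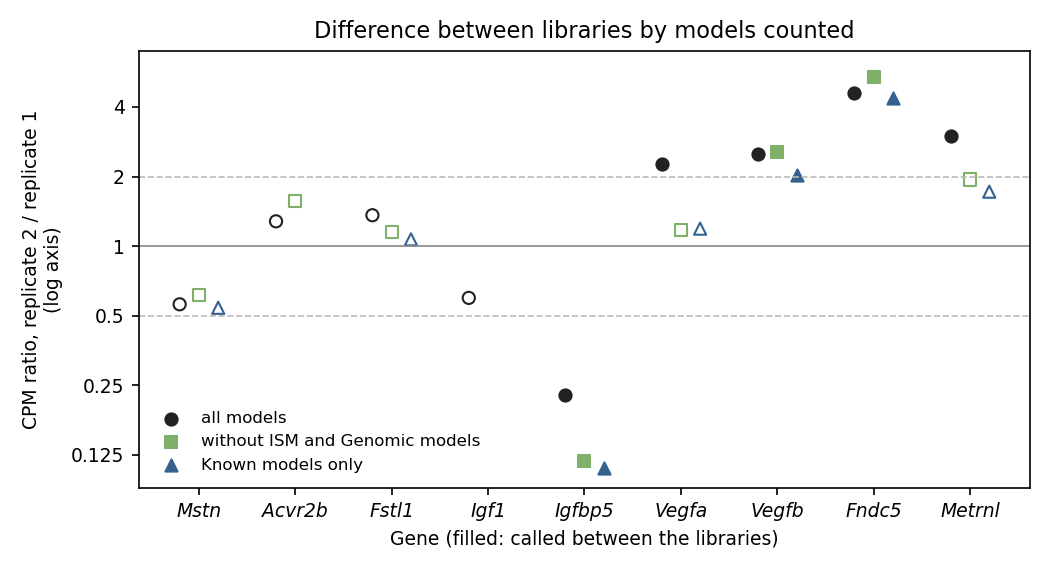
Ratio of CPM in replicate 2 to replicate 1 on a log axis for each gene, with all models, without ISM and Genomic models and with Known models alone; filled symbols passed the test and the 2-fold size, dashed lines mark 2-fold. Fndc5, Vegfb and Igfbp5 are filled under all 3 counts, Vegfa and Metrnl with all models alone, and Igf1 and Acvr2b lack points where under 10 reads were left.

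Counting fewer kinds of models separated the 5 called genes. Fndc5, Vegfb and Igfbp5 kept their calls and directions with annotated transcripts alone and without ISM and Genomic models. The Fndc5 ratios were then 4.37 and 5.40, and the Igfbp5 ratios 0.110 and 0.118. The Vegfb ratios were 2.03, close to the 2-fold size set for a call, and 2.55. Vegfa (1.19 and 1.17) and Metrnl (1.72 and 1.94) did not pass under either.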

How the data were processed

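The authors deposited, per library, raw counts of reads for each transcript model, as whole numbers, with an annotation. Per the file headers and notes beside them, both come from filtered alignments to mm10 with GENCODE M21, and model classes are those of TALON; how reads were aligned, filtered and stranded, and with which versions, is not given in the sources used here. Known models carry annotated ends. Gene counts are sums over models, without spike-ins, antisense and intergenic loci. Fisher's exact test ran over genes with at least 10 reads summed (leading models: at least 20 reads per library and 10 percentage points) in Python 3.11.15 with scipy 1.17.1, and was tested on simulated data, where it missed many changes in genes with few reads. P-values rest on counting error in these 2 libraries and hold no spread between animals. For the leading model, unannotated single-exon models of a gene were pooled within each class. Log2 ratios used a pseudocount of 1 CPM. The TMM and size factors used in alternatives came from edgeR 4.0.16 and DESeq2 1.42.0 (R 4.3.3). Members and lists were chosen with earlier results of these data known. All 9 members are named, with models of at least 5 reads in either library, annotated transcripts that differ in coding sequence, and from each list the called genes and the 3 with most reads; other models named were chosen after their values were seen.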

Additional observations from a re-analysis of the deposited data

Results flagged for a closer look

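Reads on the opposite strand of 3 of the 9 genes were outside the comparisons above and exceeded 3 reads in both libraries, the floor set here for a count of 0. Whether counting used the strand of the RNA is not given in the sources used here, so reads of the strands cannot be told apart with certainty. Over Acvr2b they numbered 32 in replicate 1 and 42 in replicate 2, against 7 and 18 reads of Acvr2b itself. Of these, 17 and 26 belonged to Gm47320, an annotated gene of the minus strand at chr9:119405108-119409016 whose span holds the unannotated start exon of Acvr2b, and 14 and 15 to a single-exon locus over the last exon of Acvr2b and the bases past it. Over Igf1 there were 11 and 47 opposite-strand reads against 5 and 6 of Igf1, and 10 and 42 of them lay in single-exon models inside its last exon, which share their 5′ position, 87935473, and differ in their 3′ position (87935210 and 87934018). Over Fstl1 there were 4 and 8, against 26 and 71 of Fstl1. Mstn and Vegfb had none in either library.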

How the results depend on the processing

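The 9 genes kept the direction of their ratios under every alternative that gave a value, and 64 of 68 such values kept their side of the threshold. With annotated transcripts alone, 255 genes were higher in replicate 2, 3 of the 9 genes were called, and 8 of 2213 genes had a changed leading model; without ISM and Genomic models the last 2 counts were 3 and 20 (of 2518). No member had a changed leading model (0) under these or with a minimum of 50 reads per library; fewer members then entered the test (3, 3 and 1). The Vegfa and Metrnl calls are those lost. The other scalings, totals and minimum counts left all 5 member calls in place. Leaving out a library leaves no comparison. No paired analysis was possible because both libraries belong to 1 group. Depth limits Igf1, Acvr2b and Metrnl most: 3 counts are 3.76 CPM in replicate 1 and 1.87 CPM in replicate 2.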
